A study of Homo sapiens with 2 samples.

Results

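The peaks described here are the HNRNPC peaks whose summit, the base of strongest signal, lay in exactly 1 RefSeq protein-coding gene with a span of 400 kb or longer on chromosomes 1 to 22 and X. Of 23148 deposited peaks, 23086 lay on these chromosomes, 21754 had their summit in exactly 1 protein-coding gene, and 813 of these (3.74%) lay in a gene of 400 kb or longer. The rule used gene coordinates and summit positions, and no fold or q. The series holds 2 samples of A549, a long-established line of human non-small cell lung cancer: 1 library of RNA pulled down with 5 µg of anti-HNRNPC antibody and 1 input library made without antibody from the same line, with no treatment named in the labels. RNA immunoprecipitation followed by sequencing (RIP-seq) gives peaks where pulled-down RNA is dense along the genome. Values of the input were not used here. Each group is 1 library, so nothing could be checked against a replicate and no p-value is given. The depth of the library is unknown, because the peak list holds no read totals. The fold enrichment and q of a peak are those the authors deposited, and they are used only for description and ranking inside this list. Intervals are 95% exact binomial (Clopper-Pearson) intervals on shares and exact Poisson intervals on densities. They cover counting error only and treat peaks, and genes, as independent, which neighbouring peaks of a gene are not.

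HNRNPC is an abundant nuclear protein that coats newly made RNA and is known to bind runs of U. Very long human genes owe nearly all their length to introns, so their unspliced transcripts offer HNRNPC far more intronic than exonic sequence. HNRNPC is known to mask cryptic splice sites in introns, and its binding is known to be opened by N6-methyladenosine (m6A) in nearby sequence, the setting in which this study examined it. Many of the longest human genes serve the nervous system or muscle and are silent in epithelial cells, and a peak needs RNA: a gene that is not transcribed and a transcript that is not bound cannot be told apart in a peak list. The list was checked against marker genes. Among 8 epithelial markers, CDH1 and OCLN had a peak (2 of 8), beside 17.2% of all protein-coding genes. Of 12 genes of the NRF2 programme that A549 is known to run, 5 had a peak (ALDH1A1, TXNRD1, SLC7A11, GCLM and ABCC2), against 0 of 8 alveolar and lung, 0 of 5 blood and immune and 0 of 5 neuronal markers. With so few markers these counts cannot be set apart from that share, and a missing peak is no measure of expression.

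Sequences of the gene starts came from RefSeq on GRCh38.p14, and those of peaks inside introns were not used here. Shown are 180 bases, 150 before and 30 from the annotated start, for the 4 long genes with the highest fold among summits 0 to 99 bp after a start, and for the last 2 starts of PDE4D, the gene with the most peaks, between and after which most of its peaks lay. Each is written 5′ to 3′ on the gene's strand, with the bases under a called peak in capitals and the rest in lower case. The windows are chr10:126905278-126905457 (+) for DOCK1, chr16:53704006-53704185 (+) for FTO, chr6:57317480-57317659 (+) for PRIM2, chr3:17742602-17742781 (-) for TBC1D5, and chr5:59039447-59039626 (-) and chr5:58999869-59000048 (-) for PDE4D.
DOCK1: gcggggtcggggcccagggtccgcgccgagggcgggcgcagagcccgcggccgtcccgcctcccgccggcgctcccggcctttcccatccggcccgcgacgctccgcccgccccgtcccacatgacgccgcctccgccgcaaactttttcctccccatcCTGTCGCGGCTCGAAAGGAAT
FTO: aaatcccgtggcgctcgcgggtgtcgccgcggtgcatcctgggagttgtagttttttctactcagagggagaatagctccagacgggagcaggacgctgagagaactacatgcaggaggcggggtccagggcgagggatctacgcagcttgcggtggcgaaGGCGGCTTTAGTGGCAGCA
PRIM2: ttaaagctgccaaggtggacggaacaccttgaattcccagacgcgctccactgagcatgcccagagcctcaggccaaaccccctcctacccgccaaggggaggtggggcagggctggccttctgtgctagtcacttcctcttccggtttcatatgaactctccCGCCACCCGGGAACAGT
TBC1D5: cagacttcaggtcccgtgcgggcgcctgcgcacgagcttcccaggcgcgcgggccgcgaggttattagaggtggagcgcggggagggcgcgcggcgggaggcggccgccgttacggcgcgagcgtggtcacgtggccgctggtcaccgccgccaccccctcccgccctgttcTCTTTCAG
PDE4D at 95.5% of the span: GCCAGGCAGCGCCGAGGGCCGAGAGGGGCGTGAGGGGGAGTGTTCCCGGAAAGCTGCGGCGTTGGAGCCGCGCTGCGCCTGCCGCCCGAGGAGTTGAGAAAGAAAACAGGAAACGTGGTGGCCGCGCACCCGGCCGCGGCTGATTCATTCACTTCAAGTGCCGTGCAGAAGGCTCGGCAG
PDE4D at 98% of the span: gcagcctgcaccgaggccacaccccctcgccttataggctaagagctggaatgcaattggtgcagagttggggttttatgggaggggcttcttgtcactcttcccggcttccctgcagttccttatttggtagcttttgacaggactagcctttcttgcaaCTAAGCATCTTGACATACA
In the windows of DOCK1, FTO, PRIM2 and TBC1D5 and of the last PDE4D start, the capitals began only after the start, so that the called peak covered none of the bases shown before it. The starts of PRIM2 and PDE4D lie inside the annotated span, where transcripts from earlier starts can also run. The PDE4D start at 95.5% differed, since its peak reached beyond the whole window on both sides. A run of TTTTT, which would read UUUUU in RNA, was found in 2 of these 6 stretches (DOCK1 and FTO). A run of AAAAA, the same letters on the other strand, was found in 0 of 6. In DOCK1 and FTO the run of TTTTT lay before the annotated start, so it is not part of RNA made from that start. It also lay in lower case, before the bases under the peak. A match of letters is a description, not a binding site.

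Long genes carried HNRNPC peaks about as often as protein-coding genes in general, but far more sparsely. At least 1 peak lay in 99 of 482 long genes (20.5%, 17 to 24.4%), beside 17.2% of all 19970 protein-coding genes. Among genes of 100 to under 400 kb the share was 36.6% (34.8 to 38.4%, 1050 of 2869), and among genes under 100 kb it was 13.7% (13.2 to 14.3%, 2285 of 16619). Over the whole summed span, long genes held 0.241 peaks per 100 kb (0.225 to 0.258), genes of 100 to under 400 kb held 1.81 (1.77 to 1.84) and shorter genes 2.65 (2.60 to 2.70). Counting only genes with a peak, the density was 1.32, 5.05 and 10.8 per 100 kb in the same order. A gene with 1 peak has a lower density the longer it is, so part of this order follows from the lengths themselves. The median number of peaks per gene with a peak was 6 in long genes, 6 in genes of 100 to under 400 kb and 3 in shorter ones. With 300 kb in place of 400 kb, 1704 peaks in 189 genes gave a density of 0.390 per 100 kb, and with 500 kb 526 peaks remained in 60 genes.

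Within the long genes, the share with a peak was lower above 1000 kb. It was 23.2% (39 of 168 genes) at 400 to under 500 kb, 20.5% (30 of 146) at 500 to under 700 kb and 23.2% (23 of 99) at 700 to under 1000 kb. Then it was 11.8% (4.44 to 23.9%, 6 of 51) at 1000 to under 1500 kb and 5.56% (0.141 to 27.3%, 1 of 18) at 1500 kb or longer. These intervals overlap those of the shorter bins, which in bins of 51 and 18 genes does not decide whether the fall goes beyond counting error. That was not tested. PDE4D was the 1 gene with a peak among the 20 longest. Median span was 547 kb for the 99 genes with a peak and 577 kb for the 383 without.

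**Figure D1:**
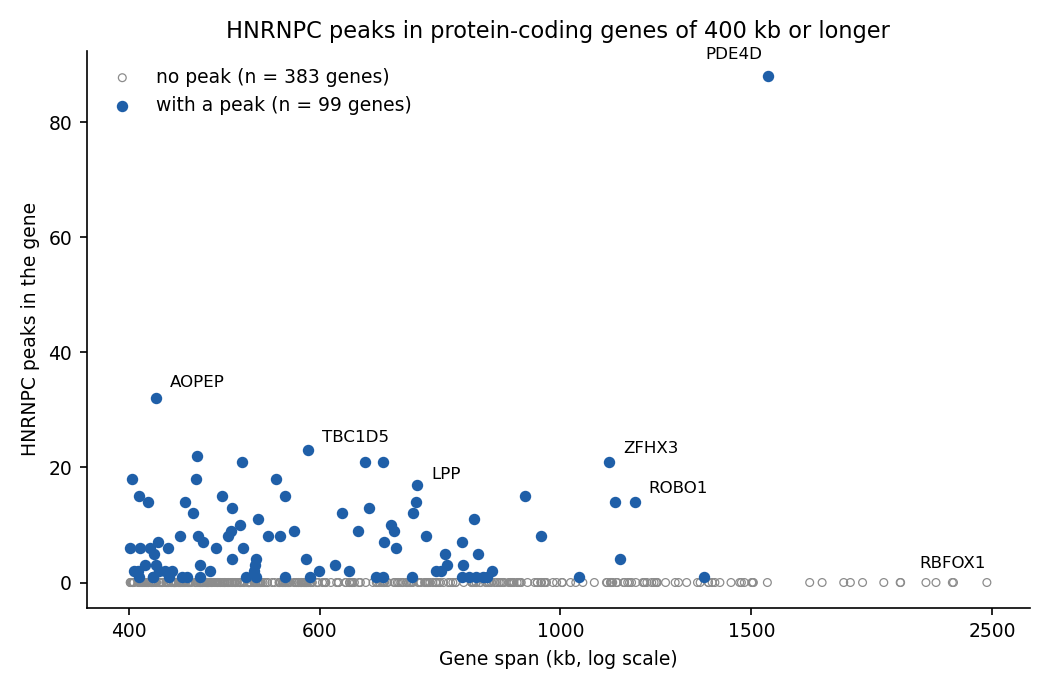
Each point is 1 of 482 protein-coding genes of 400 kb or longer, with its span in kb (log axis) against the number of HNRNPC peaks whose summit lay in it alone; filled points are the 99 genes with a peak and open circles the 383 without. PDE4D stands at 88 peaks and 1553 kb, AOPEP follows at 32, and RBFOX1, the longest gene at 2474 kb, has none.

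The peaks were concentrated in few genes. Of the 99 genes, 21 had 1 peak, 48 had 2 to 9 and 30 had 10 or more. These 30 held 554 of the 813 peaks (68.1%), and 18 genes were enough to hold 50% of them. PDE4D alone held 88 (10.8%). The 99 densities ranged from 0.0738 per 100 kb in TENM3 (1 peak over 1355 kb) to 7.56 in AOPEP, with a median of 1.02 and quartiles of 0.324 and 1.80. The 3 genes just above the 400 kb threshold were BMPR1B (400.5 kb, 6 peaks), KCNB2 (401 kb, none) and DPH6 (401 kb, none). Just below it, HECW2 (399 kb), DTNA (399 kb) and MAF (398 kb) had none.

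Enzymes of cyclic nucleotide and diacylglycerol signalling held 142 peaks, of which 88 lay in PDE4D. Of 16 such genes of 400 kb or longer, 6 had a peak (37.5%, 15.2 to 64.6%), beside 20.5% of all long genes. That value lies inside this interval and inside those of the transcription, traffic and receptor lists given next, and just under that of the cytoskeleton list. PDE4D, a phosphodiesterase that breaks down cAMP, had 88 peaks over 1553 kb (chr5:58969038-60522128), or 5.67 per 100 kb (4.54 to 6.98). Its folds ran from 3.34 to 24.7 with a median of 5.27. Its 3 strongest peaks had the 3 highest folds of all 813: 24.7 at chr5:58993332-58993608, 24.2 at chr5:58991795-58992045 and 23.8 at chr5:59035006-59040220, the 5215 bp peak that covers the start printed above. Joined into 1 where summits lay under 1000 bp apart, its 88 peaks became 49. PDE10A, which breaks down cAMP and cGMP, had 21 peaks at 3.18 per 100 kb (1.97 to 4.86), with a highest fold of 9.35. Of these, 18 also lay in the noncoding gene LINC00473 on the same strand and 3 remained without them, and joining summits under 1000 bp apart left 9. PRKCA, the protein kinase C alpha that diacylglycerol activates, also had 21, at 4.13 per 100 kb (2.56 to 6.32). PRKCA had 4 peaks of fold 10 or more: 14.5 at its start, 13.5 and 15.95 at 66.7 and 67.5% of the span, and 15.5 at 76.0%. Its last 9 peaks, in the final decile of the span, were all weaker than these 4, at 3.78 to 7.73. PDE1C had 7 peaks and PDE4B had 4. INPP4B, which was counted in this list but is known as a phosphoinositide phosphatase, had 1. PRKG1 (1307 kb), a cGMP-dependent kinase, DGKB (830 kb), a diacylglycerol kinase, and PLCB1 (753 kb), a phospholipase C, had none.

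Genes of the cytoskeleton, cell junctions and matrix made up the second group. Of 40 such long genes 14 had a peak (35.0%, 20.6 to 51.7%, beside 20.5% of all long genes), with 106 peaks in all. LPP, a LIM protein of focal adhesions, had 17 peaks at 2.30 per 100 kb (1.34 to 3.69). Its median fold of 10.6 was above that of each of the other 29 genes with 10 or more peaks, the next being 6.73 in TBC1D5. The last 8 LPP peaks, from 96.7 to 99.8% of the span, had folds of 7.73, 14, 19.3, 13.8, 17.1, 15.4, 16.3 and 4.79 in order. The peak of fold 19.3 at chr3:188874343-188880054 was 5712 bp wide. MACF1, which links actin to microtubules, had 18 peaks at 4.47 per 100 kb (2.65 to 7.06) and a highest fold of 8.67. FRAS1, a matrix protein of basement membranes, had 15 with a highest fold of 5.76, and 9 remained at q of 0.001 or less. PCDH9, a protocadherin, had 15. COL5A2, a fibrillar collagen chain, had 6, of which 1 reached a fold of 12.6. DMD (2220 kb), the dystrophin gene, CTNNA3 (1851 kb), an alpha-catenin, and PCDH15 (1825 kb) had none.

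Transcription and chromatin regulators had a peak in 9 of 32 long genes (28.1%, 13.7 to 46.7%). NFIB, a nuclear factor I protein, had 14 peaks at 3.11 per 100 kb (1.7 to 5.22). GLIS3, a zinc finger factor, had 13, and FOXP1, a forkhead factor, had 12. CDKAL1, which was counted in this list but is known as a tRNA-modifying enzyme, had 10. The homeobox and zinc finger factor ZFHX3 had 21 peaks over 1109 kb and the BTB zinc finger factor ZBTB20 had 11 over 833 kb, both outside the lists. ZBTB20 held the widest of the 813 peaks, 10989 bp at chr3:114319521-114330509 with a fold of 11.1, and the second widest, 7693 bp at chr3:114331701-114339393 with a fold of 12.1. AUTS2 (1195 kb), SOX5 (1033 kb) and ZNF385D (961 kb) had none.

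The list of ubiquitin, DNA repair, trafficking and metabolism genes had a peak in 10 of 39 long genes (25.6%, 13.0 to 42.1%). TBC1D5, a Rab GTPase activator of the retromer pathway, had 23 peaks at 3.93 per 100 kb (2.49 to 5.89) and a highest fold of 11.1. STAG1, a cohesin subunit, had 14, NBEA, a BEACH-domain trafficking protein, had 12, and EXOC6B, an exocyst subunit, had 9. AOPEP, an aminopeptidase outside the lists, reached the highest density of the 99 genes, 7.56 per 100 kb (5.17 to 10.7), with 32 peaks. Their folds ran from 3.82 to 6.73, with a median of 4.90 beside 5.27 for all 813 peaks. At q of 0.001 or less 21 of the 32 remained. With summits under 1000 bp apart joined, 19 remained. DOCK1, a Rac exchange factor, had 18 peaks and a highest fold of 10.6. The list of receptor kinases and phosphatases had a peak in 5 of 12 genes (41.7%, 15.2 to 72.3%), led by the receptor phosphatases PTPRG with 14 and PTPRK with 8. NRG1, with 4, was counted among these 5 but is known as a ligand of receptor kinases. MSI2, which binds RNA, had 8 peaks with a highest fold of 11.2, and FTO, an m6A demethylase, had 6 with a highest fold of 11.1. Of 11 genes of TGF-beta, WNT, Hippo and PI3K signalling, BMPR1B (6 peaks) and LTBP1 (1) had a peak, and 1 gene remained at q of 0.001 or less. The secreted or membrane proteins THSD7A (22 peaks, 4.76 per 100 kb) and THSD4 (21), the scaffold TANC2 (18) and the membrane-associated kinase CASK (15) also stood among the genes with the most peaks.

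The lists of synapse genes, and of receptors and channels, stood at the other end. Their shares depend on which genes were listed: DLGAP1 (8 peaks) and SHANK2 (3), also synapse proteins, were in neither list. Among neuronal adhesion molecules and synapse organisers, 2 of 35 long genes had a peak (5.71%, 0.70 to 19.2%): SYT1, a synaptic vesicle calcium sensor, and TENM3, a teneurin, with 1 each at a fold of 5.27. Neurotransmitter receptors and ion channels had a peak in 2 of 33 (6.06%, 0.743 to 20.2%). CACNA2D1, a calcium channel subunit also made outside neurons, had 13 of their 15 peaks and KCNMA1, a potassium channel, had 2. Genes of common fragile sites, many of them neuronal too, had one in 2 of 27 (7.41%, 0.910 to 24.3%), THSD7A with 22 and NBEA with 12. Genes in no list gave 17.2% (12.6 to 22.6%, 40 of 233), beside 20.5% for all long genes. The lists overlap, and the lists and the genes in them are not independent draws, so the shares are given as a description. RNA levels were not measured in the values used here, and the part of expression in these shares was not tested.

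**Figure D2:**
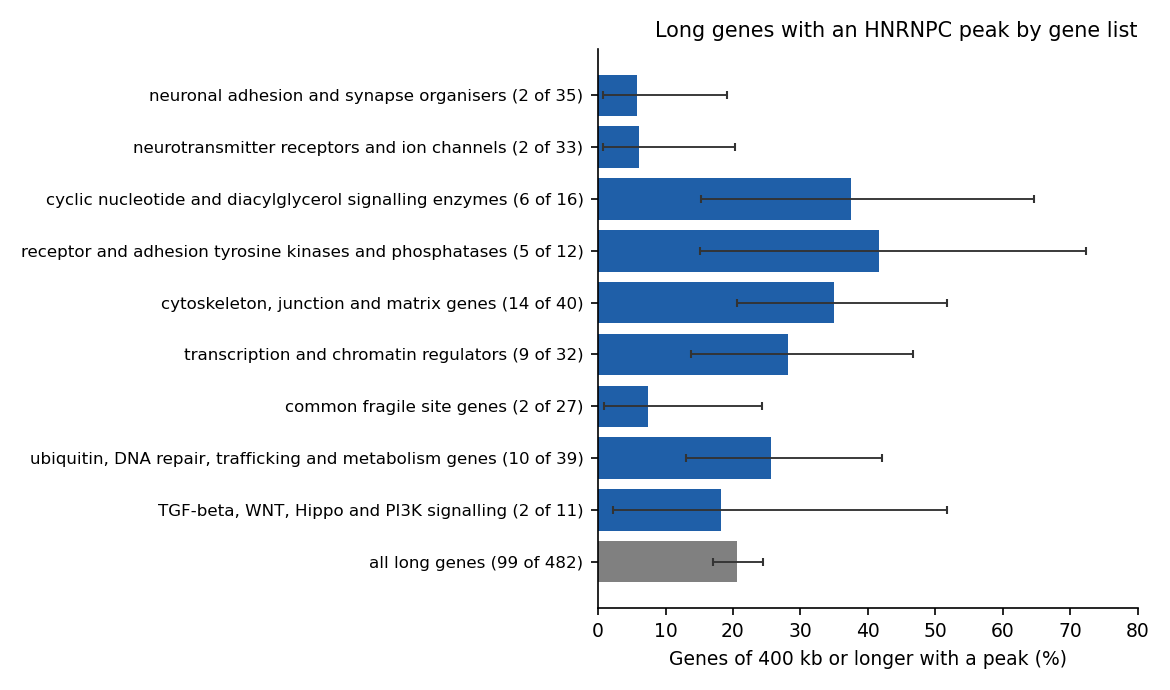
Bars give the percent of genes of 400 kb or longer with at least 1 HNRNPC peak in each of 9 lists, with the counts beside the names and the share over all 482 long genes in grey; lines are 95% exact binomial intervals, which cover counting error only. The lists of synapse genes, receptors and channels, and fragile sites lie at 5.71 to 7.41%, and the list of receptor kinases and phosphatases lies at 41.7%.

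The 10 longest genes of all carried no peak. They were RBFOX1 (2474 kb), a splicing regulator of neurons and muscle, CNTNAP2 (2304 kb), PTPRD (2299 kb), DMD (2220 kb), DLG2 (2173 kb), CSMD1 (2060 kb), MACROD2 (2058 kb), EYS (1987 kb), LRP1B (1900 kb) and CTNNA3 (1851 kb). In all, 383 long genes had none by the rule, and 379 of these had no summit of any kind in their span. The other 4 held only summits shared with a second protein-coding gene: GPHN 13, TMEM117 7, PDE1A 1 and ATXN1 1. Among the longest genes with exactly 1 peak were TENM3 (1355 kb), SGCD (1040 kb), EXOC4 (848 kb) and RABGAP1L (836 kb), with folds of 4.79 to 5.76. In TENM3, SGCD and RABGAP1L that peak lay at 96.4, 99.3 and 99.2% of the span, and in EXOC4 at 2.60%. By chromosome, chromosome 17 had 5 of 12 long genes with a peak (15.2 to 72.3%) and chromosome 3 had 11 of 43 (13.5 to 41.2%). The X chromosome had 1 of 17 (CASK, 0.149 to 28.7%). Chromosomes 19, 20 and 21 had 0 of 1, 0 of 8 (0 to 36.9%) and 0 of 4. Each of these intervals holds the 20.5% of all long genes, so the chromosomes are not set apart from it.

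Peaks in long genes were somewhat weaker than peaks elsewhere. The median fold was 5.27 (quartiles 4.79 and 6.39) against 5.76 in both shorter classes, and the median −log10 q was 3.89 against 5.22. A fold of 10 or more was reached by 47 of 813 (5.78%, 4.28 to 7.61%), beside 8.91% of all peaks in exactly 1 protein-coding gene. The shares were 9.58% (9.0 to 10.2%) at 100 to under 400 kb and 8.58% (8.07 to 9.10%) under 100 kb. The interval of the long genes lies below both. The 47 peaks lay in 19 genes, 9 each in PDE4D and LPP and 4 in PRKCA. The folds take 218 distinct values and 117 peaks share the value 5.27, so small differences of medians are steps of the caller's scale. Median width was 115 bp (quartiles 72 and 204), against 120 bp at 100 to under 400 kb and 127 bp under 100 kb. A width of 1000 bp or more was reached by 25 peaks (3.08%) in 12 genes, among them 5 in PDE4D, 4 in LPP and 4 in PCDH9. That share was 1.77% at 100 to under 400 kb and 2.90% under 100 kb, so wide peaks are not particular to long genes.

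Along a gene, peaks came in clusters with long empty stretches between or beside them. Over the 714 gaps between neighbouring summits in 78 genes, the median gap was 6.18 kb (quartiles 1.15 and 32.3 kb), and 23.4% were under 1 kb and 57.3% under 10 kb. Yet 66 gaps (9.24%) were over 100 kb. In genes of 100 to under 400 kb the median was 3.45 kb, 73.7% were under 10 kb and 1.34% over 100 kb, a size that the shorter of these genes can hardly hold. With summits under 1000 bp apart joined, the median gap in long genes was 13.5 kb. The longest was 427 kb in PTPRG, from a pair of peaks in the first decile to the next at beyond the midpoint. ZBTB20 (366 kb) and PDE10A (325 kb) had gaps of like size. The longest stretch without a peak was measured in the 55 genes with 5 or more peaks, with stretches out to either gene end counted too. It took a median of 48.5% of the span (quartiles 34.6 and 64.6%), and over 50% in 25 genes. It was 97.0% in PCDH9, from its last summit to the 3′ end of the gene, and 15.7% in LPP. The shortest stretch that held at least 50% of a gene's peaks took a median of 7.71% of the span, or 38.3 kb, and under 10% in 33 of the 55. In PDE4D 44 of 88 peaks lay within 48.5 kb (3.12% of the span), in PDE10A 11 of 21 within 7.45 kb (1.13%), and in ZFHX3 11 of 21 within 14.2 kb (1.28%). In THSD4 the like stretch was 297 kb (43.3%), since its peaks fell into groups near both ends. CASK and LPP were spread more evenly by the longest empty stretch, at 18.1 and 15.7% of the span.

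**Figure D3:**
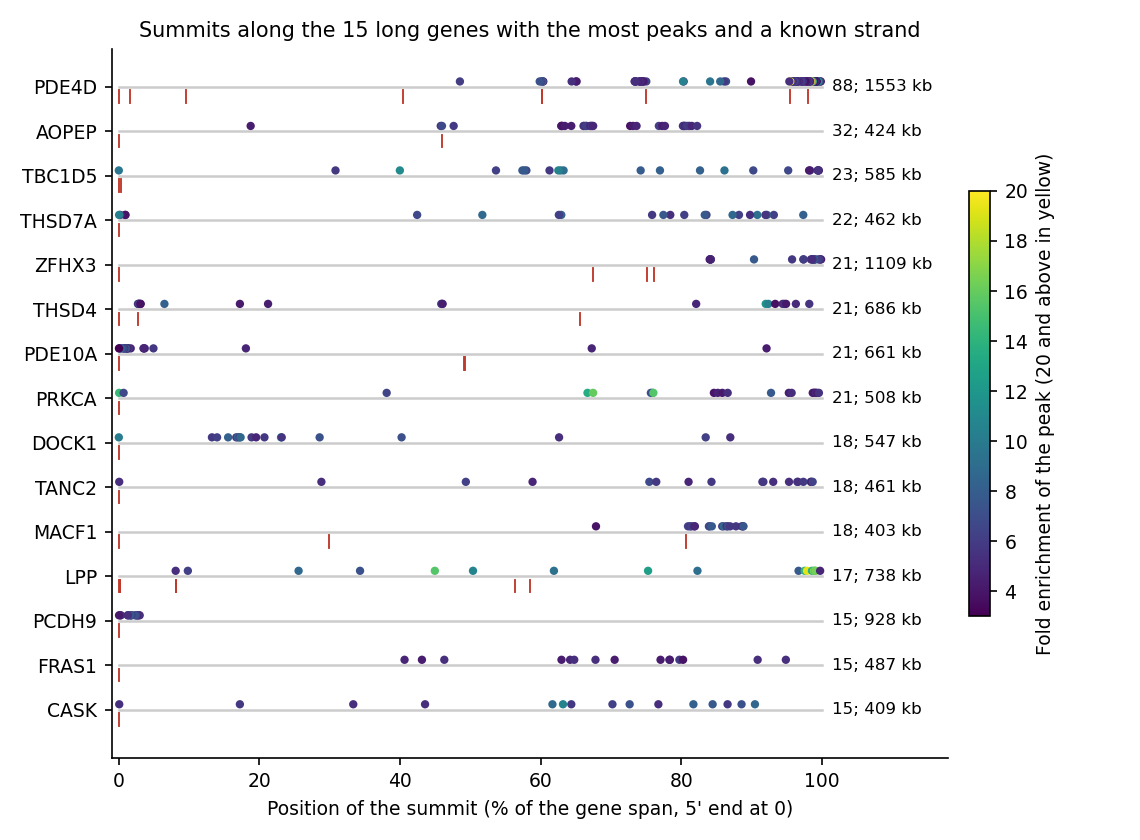
Each dot is 1 HNRNPC summit along 1 of the 15 long genes with the most peaks among those whose strand is known, in percent of the gene span from the 5′ end; colour is the authors' fold enrichment, red ticks are annotated starts, and the number of peaks and the span stand at the right. PDE4D, ZFHX3, MACF1 and LPP crowd toward the 3′ end, PCDH9 and PDE10A toward the 5′ end, and CASK is spread over most of its span.

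Summits gathered toward the 3′ end. The RefSeq start table gave a strand for 81 of the 99 genes with a peak and so for 733 of the 813 peaks. From the 5′ to the 3′ end, the 10 equal parts (deciles) of the span held 97, 27, 42, 26, 29, 24, 62, 65, 126 and 235 summits. The final decile thus held 32.1% (28.7 to 35.6%) and the first decile 13.2% (10.9 to 15.9%), with the lowest counts between. In genes of 100 to under 400 kb the final decile held 16.9% (16 to 17.7%) and in genes under 100 kb 9.52% (8.94 to 10.1%). Summits beyond the midpoint made up 69.8% (66.4 to 73.2%) in long genes, 67.2% (66.1 to 68.2%) in genes of 100 to under 400 kb and 49.5% (48.5 to 50.5%) in shorter ones. Without PDE4D the value was 65.9% in long genes and with each gene counted once 63.5%. Of the 49 genes with a strand and 5 or more peaks, 33 had more summits beyond the midpoint than before it and 16 had fewer. All summits lay beyond the midpoint in 12 of these genes and before it in 6.

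**Figure D4:**
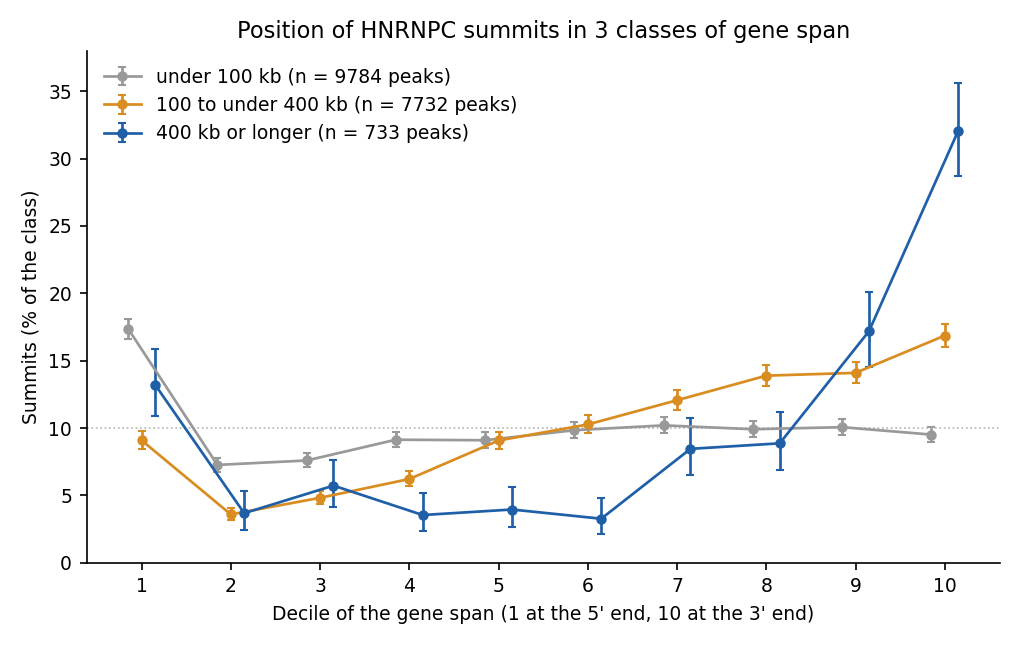
Points give the percent of HNRNPC summits in each decile of the gene span, from the 5′ end (1) to the 3′ end (10), for 3 classes of gene span; lines through the points are 95% exact binomial intervals (counting error only) and the dotted line marks an even spread. In genes of 400 kb or longer the final decile holds 32.1%, against 16.9% at 100 to under 400 kb and 9.52% under 100 kb.

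Single genes took different forms behind this average. In PDE4D the final decile held 58 of 88 summits and the first 4 deciles none. MACF1 had 17 of 18 in the ninth decile, ZFHX3 all 21 in the last 2 deciles, and ZBTB20 10 of 11 in the final decile. TBC1D5, THSD7A and THSD4 had summits at both ends, with 8, 5 and 8 in the final decile and 1, 4 and 7 in the first. The opposite form was rarer. PCDH9 had all 15 summits in the first decile, over 27.2 kb, and PDE10A had 18 of 21 there. NBEA had its 12 in deciles 2 to 4, and DOCK1 had 14 of 18 in the first 3 deciles. RANBP2, a nuclear pore protein, had all 14 in the first 46.8 kb of an annotated span of 1123 kb. RANBP2 has near-identical copies in the genome (the RGPD genes), so how reads were shared between them is uncertain. Whether its annotated span of over 1 Mb is a read-through model was not checked, and with it whether RANBP2 belongs among the long genes. AOPEP had 28 of 32 in the seventh to ninth deciles and none in the final one.

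Distance from the ends gave the same picture in kb. In the 81 genes with a peak and a strand, the first 20 kb held 3.89 peaks per 100 kb (2.99 to 4.98), the next 20 kb 1.48, and the stretch from 60 to 80 kb 0.309 (0.10 to 0.720). From the 3′ end, the last 20 kb held 6.54 (5.36 to 7.91), and the density then fell in steps of 20 kb through 4.57, 3.77, 3.27 and 2.41 to 1.48 at 100 to 120 kb. Without PDE4D the last 20 kb held 5.63 and the steps before it 3.69, 2.75 and 2.69. The first 5 kb held 37 summits in 25 genes (9.14 per 100 kb) and the last 5 kb 36 summits in 15 genes (8.89), against 1.32 between them. In genes of 100 to under 400 kb these densities were 12.4, 8.92 and 4.58 per 100 kb. The interior density differed more between these classes than the density of the final 5 kb.

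**Figure D5:**
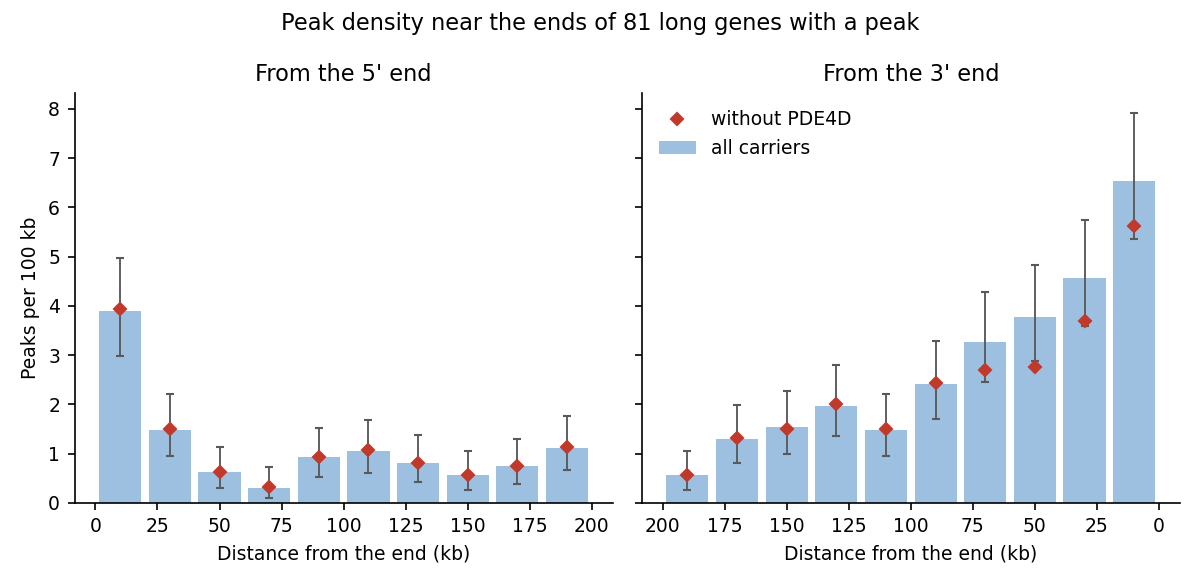
Bars give HNRNPC peaks per 100 kb in steps of 20 kb from the 5′ end (left) and from the 3′ end (right) of the 81 long genes with a peak and a known strand; lines are 95% exact Poisson intervals (counting error only) and red diamonds leave out PDE4D. The last 20 kb hold 6.54 peaks per 100 kb and the first 20 kb hold 3.89.

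Annotated alternative starts divide several of these genes. Of 31 genes with 5 or more peaks and more than 1 segment between starts, 18 had their last start beyond the midpoint. In 15 of these 18 the part after it held a larger share of the peaks than of the span, and in 3 a smaller share (NBEA, LRBA and UTRN). In 7 of the 31 the last start lay in the first 10% of the span, where such a count says little. Summits gathered toward the 3′ end in long genes as a whole (69.8% beyond the midpoint). A surplus after a late start can therefore arise whatever the start does, and the part of the starts was not tested. PDE4D has 8 listed starts and is known for short and long isoforms made from different promoters. Its first 3 segments, up to 40.5% of the span, held 0 of 88 peaks. From there to 60.2% there were 4. The segment from 60.2 to 75% held 18 over 230 kb (7.84 per 100 kb, 4.65 to 12.4), and the next, from 75 to 95.5%, fewer: 9 over 317 kb (2.83 per 100 kb, 1.3 to 5.38). After the start at 95.5%, whose window is printed above, 30 peaks lay in 39.6 kb (75.8 per 100 kb, 51.1 to 108). After the last start, at 98%, 27 peaks lay in 30.9 kb (87.5 per 100 kb, 57.7 to 127). The intervals before and after the start at 95.5% do not meet, but they treat neighbouring summits as independent. Joined where summits lay under 1000 bp apart, the 88 peaks of PDE4D became 49. Crowding after a late start was also seen in MACF1, where 17 of 18 peaks lay after the last of 3 listed starts (78.1 kb, 21.8 per 100 kb). In ZFHX3 all 21 lay after the last of 4 (265 kb). In ZBTB20 10 of 11 lay after the last of 8 starts (69.1 kb), in NFIB 12 of 14 after the last of 10 (99 kb) and in FOXP1 10 of 12 after the last of 6 (110 kb). The last of the 2 AOPEP starts lies before the midpoint, at 45.9% of the span, and 30 of 32 peaks lay after it (229 kb). NBEA went the other way, with 0 of 12 after its second start, over 196 kb, as did LRBA with 0 of 8 (315 kb) and UTRN with 1 of 9 (270 kb). PDE10A had 2 of 21 (9.52%) after its last start, over 50.7% of the span. THSD4 had a small surplus, with 9 of 21 (42.9%) after its last start, over 34.4% of the span. Which isoforms A549 makes from these starts was not measured.

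Peaks directly after a start were few. Of the 733 summits with a strand, 14 lay 0 to 99 bp after a listed start (1.91%, 1.05 to 3.18%), in 14 genes. The share was 2.97% (2.61 to 3.38%) at 100 to under 400 kb and 6.73% (6.24 to 7.24%) in shorter genes. A further 24 lay from 100 to under 500 bp after one. DOCK1, FTO and PRIM2 reached a fold of 10.1 there, with summits 55, 53 and 46 bp after the start, and TBC1D5 9.64 at 50 bp. These are the 4 single-gene windows printed above. The other 10, with folds of 4.3 to 6.73, lay in CDKAL1, DIAPH3, STAG1, PALLD, LPP, RANBP2, SBF2, BMPR1B, NBAS and ZBTB20. The RefSeq windows of 300 bases hold 250 bases before the start and 50 after it, so they are mostly sequence outside RNA made from that start. Of the 14 windows, 3 held TTTTT on the gene's strand and 3 held it on the other strand. The 3 on the gene's strand (DOCK1, FTO and LPP) held it before the start. Over the windows of all protein-coding genes the shares were 20.7% and 20.4% (22155 windows), and over those of long genes 31.0% and 25.4% (855 windows). The 14 windows are too few to tell these apart.

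Some summits also lay in a smaller gene inside the long one. Of the 813 summits 77 (9.47%) also lay in a gene of another biotype, each time a long noncoding RNA, against 3.84% at 100 to under 400 kb and 4.65% under 100 kb. The other gene lay on the opposite strand for 53, on the same strand for 17, on both for 1, and its strand was not in the table for 6. The peak list carries no strand, so reads of a gene and of an antisense partner cannot be told apart. In PDE10A 18 of 21 summits lay in LINC00473, a noncoding RNA of 64.0 kb on the same strand, and these 18 are the ones of its first decile: 3 peaks remain without them. In ZFHX3 14 of 21 lay in ZFHX3-AS1 on the opposite strand and 7 remain. SBF2 had 6 of 11 in an antisense noncoding gene, TANC2 6 of 18 and PTPRG 5 of 14 in PTPRG-AS1. Of 28 microRNA hairpins annotated inside the 99 genes, 0 were overlapped by a peak. The nearest was MIR634 in PRKCA, 89 bp from a peak of fold 4.44, and 3 hairpins lay within 5 kb of a peak. The 813 peaks, with a median width of 115 bp, cover little of the 61.8 Mb that these genes span. The count of 0 overlaps therefore cannot be read as avoidance of hairpins.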

How the data were processed

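RIP-seq was done on 2 samples of A549 cells, 1 HNRNPC pull-down and 1 input, per the labels; the authors' peak list of the pull-down was analysed. Per the submitters' processing notes the work involved hg38, HISAT2, MACS2 and bedtools; versions, settings and the control used are not given in the sources used here. Per the deposited file, each peak has a position and summit offset, a score (10 times the −log10 q, cut to a whole number, throughout the 23148 peaks), a fold enrichment (a ratio over the caller's background), a −log10 p and a −log10 q; the highest q is 0.00998. No strand or read total is given, so depth is unknown. With 1 library per group no comparison of samples was possible.

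Coordinates are 1-based. Spans of protein-coding genes are those of RefSeq on GRCh38 patch 14 (19970 genes on chromosomes 1 to 22 and X). A summit in several protein-coding spans was left out. Strand and starts came from RefSeq start windows of 300 bases, whose 3088 overlapping opposite-strand pairs were all reverse complements. The assignment of peaks to genes, and the interval of a median used to compare settings, were tested on simulated data. The binomial and Poisson intervals were not part of that test. Exons and introns were not resolved.

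The members and gene lists were chosen with earlier results of these data known. Named were the 15 long genes with the most peaks, the 10 densest with at least 3 peaks, the 10 highest by best fold, the 10 longest, the 5 longest with 1 peak, the 10 longest without, up to 4 members by peaks and 3 longest without per list, and the 3 genes on each side of 400 kb. A few of these, and the 2 lists they bear on, are not reported here. RANBP2, SBF2, LRBA, UTRN, DLGAP1, SHANK2, the genes of the 14 start peaks and those with shared summits were named after their values were seen. Alternatives were spans of 300 and 500 kb, joined neighbours, gene ends left out, other rules of overlap, q at most 0.001 and fold at least 4. Leaving out PDE4D and counting each gene once were chosen after seeing the data. The tools were numpy 2.4.6, scipy 1.17.1, pandas 2.3.3 and matplotlib 3.10.9 under Python 3.11.15.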

Additional observations from a re-analysis of the deposited data

Results flagged for a closer look

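Summits shared with a second protein-coding gene lie outside the peaks described above, and a few long genes held more than 3 of them. GPHN, which anchors inhibitory receptors at synapses, held 13 shared summits and no peak of its own, each of the 13 also lying in PALS1, a cell polarity gene; their highest fold was 10.1. TMEM117 held 7, each also in TWF1, an actin-binding gene, with a highest fold of 13.5. ANXA8 held 5, shared with NPY4R2, beside 4 of its own, and its region is known for near-identical copies. PALLD held 4, shared with CBR4, beside 2 of its own. RANBP2 held 4, of which 3 were shared with its copy RGPD5, beside 14 of its own. Which gene the RNA came from was not tested.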

How the results depend on the processing

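No paired analysis was possible because each group has 1 library. A fold of 4 or more, the peak midpoint, the whole peak inside the span, and shared summits counted for each gene moved none of the summary values beyond their counting intervals or, for counts, by 1.5 times. With q of 0.001 or less, the density was 0.193 per 100 kb, the median gap 8.27 kb, gaps under 10 kb 52.6%, the median fold 5.76 and the median −log10 q 5.22; 94 of the 99 genes kept a peak, and the 5 that lost theirs had 1. With 300 kb in place of 400 kb there were 1704 peaks in 189 genes (24.5%), at 0.390 per 100 kb, with 61.1% of gaps under 10 kb, 27.2% of summits in the final decile, 73.5% beyond the midpoint, a median fold of 5.76 and a median −log10 q of 4.72. With 500 kb there were 526 peaks in 60 genes at 0.201 per 100 kb, with a median gap of 4.62 kb, 36.2% in the final decile and 16.9% in the first. With summits under 1000 bp apart joined, the density was 0.192, the median gap 13.5 kb, gaps under 10 kb 44.1%, the final decile 28.3%, the median fold 5.72 and the median −log10 q 4.55. Leaving out summits in a gene of another biotype gave a density of 0.218, as did leaving out the 5 kb at either end, which also gave 9.09% in the first decile. Without PDE4D the density was 0.216, the median gap 8.28 kb, gaps under 10 kb 52.6%, the final decile 27.4% and the share beyond the midpoint 65.9%; with each gene counted once that share was 63.5%. Of 22 named genes, joined neighbours moved the count of peaks by over 1.5 times in 6 (PDE4D to 49, AOPEP to 19, MACF1 to 11, ZFHX3 to 11, PDE10A to 9 and ZBTB20 to 7), and the end rule moved 1, ZBTB20, to 7. The depth is unknown, and so is the level of RNA below which a peak would be missed.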

Other observations

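Wide peaks followed each other closely at the 3′ end of LPP. Its 4 peaks of 1000 bp or more all lay in the last decile of the span, and the widest, at 5712 bp, had the highest fold of the gene, 19.3. PCDH9, whose peaks lay at the opposite end, also had 4 peaks of 1000 bp or more, with a highest fold of 7.70.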
